A study of Mus musculus with 4 samples.

Results

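Retained-intron transcripts are RNAs that keep, in whole or in part, a stretch that other transcripts of the same gene splice out. The annotation used by the deposited tables, GENCODE M21 on mm10, gives this type to 21848 transcripts. Those of genes with at least 1 protein-coding transcript were followed here. They number 21421 of 141767 transcripts, and sit in 9120 of the 21901 genes with a protein-coding transcript. No measured value entered this choice.

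Polyadenylated RNA was sequenced from 4 libraries of bone-marrow-derived macrophages of C57BL/6J mice, cells grown from marrow and taken here as 1 group without a control. All had received 100 ng/ml Lipid A, the part of bacterial endotoxin that Toll-like receptor 4 senses, for 12 h, followed by a washout of 12 h, and were collected at 0 min of a second stimulation. A further label names the agent lipoprotein A, and the labels give no age or sex. The labels number the 4 libraries as biological replicates but carry 1 donor identifier for all of them, so whether they came from separate mice or cultures is not given, and p-values measure only the spread between these libraries. Each transcript had 2 deposited levels in TPM (transcript abundance per length, scaled to the same sum in every library), one in the column layout of RSEM and one in that of kallisto, called RSEM TPM and kallisto TPM below.

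Intron retention is a common form of alternative splicing in mammals. Many such RNAs stay in the nucleus, where the intron may be removed later, and those that reach ribosomes often meet a stop codon in the intron and are degraded by nonsense-mediated decay. Genes for SR proteins and for the CLK kinases that phosphorylate them are textbook cases, and in macrophages intron retention is known for transcripts of the antiviral and inflammatory response.

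The libraries differed beyond the members. RSEM counts totalled 25591162, 27377972, 48866046 and 57119610 in replicates 1 to 4, so that the limit of 3 counts corresponded to 0.0525 to 0.117 CPM, for counting error only. The deposited notes list 6 read files each for replicates 1 and 2, and 4 each for replicates 3 and 4. Ribosomal RNA held 8.496, 1.02, 0.313 and 0.349% of RSEM TPM, and mitochondrial genes held 1.88, 2.69, 8.30 and 9.27%. All 7 macrophage markers were at 1 TPM or more in every library, with a summed level of 14763 to 17422 TPM. Of 6 neutrophil markers, 2 reached 1 TPM in every library, and their summed level was 84.3, 13.7, 69.1 and 6.38 TPM. Markers of T and NK cells, fibroblasts, erythroid cells, dendritic cells and mast cells summed to less than 2 TPM for each type and library, and those of B cells to 2.54 to 4.22 TPM.

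The annotation of the members was of several kinds. At least 1 whole intron of a protein-coding transcript, 30 nt or longer, lay inside 6464 members. Another 14870 held no whole intron but had bases outside the exons of protein-coding transcripts. Of these, 9351 ended inside an intron and 7386 started inside one, and the class did not require all such bases to be intronic. The other 87 members had no base outside the exons of protein-coding transcripts. The 8652 distinct whole introns had a median length of 279 nt (quartiles 121 and 726), against 1365 nt for the 140559 introns of the same genes' coding transcripts. They began with GT and ended with AG in 98.2% of cases. An in-frame stop codon within the intron was present in 7058 of the 7932 that lay in a coding region and whose reading frame could be followed. Only 241 of those had a length divisible by 3 and no stop.

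Sequences of some whole introns held by members described below follow, from the GENCODE M21 transcripts, 5′ to 3′, with the first and last pairs of bases in capitals. Those printed all begin with GT and end with AG. Only short introns were printed, so they do not show the range of lengths. Longer ones, such as those of 387 and 871 nt in Clk1-204 and of 1302 nt in Rsrp1-204, were left out. The intron of Calr-204 is intron 4 of 8 (chr8:84844784-84844870, minus strand), that of Prelid1-202 is intron 3 of 4 (chr13:55324445-55324526, plus strand) and that of Tap2-202 is intron 6 of 11 (chr17:34212068-34212229, plus strand). Those of Rps20-201, Pirb-202 and Clk1-204 are intron 1 of 3 (chr4:3835292-3835483, minus strand), intron 6 of 14 (chr7:3716891-3717117, minus strand) and intron 6 of 12 (chr1:58417180-58417266, minus strand). Irf7-210 holds intron 5 of 9, which coding transcripts remove either in full (chr7:141264560-141264724, minus strand) or up to a nearer acceptor (chr7:141264656-141264724, minus strand). All lie in coding regions, and all but that of Prelid1-202 hold an in-frame stop codon.
Calr-204: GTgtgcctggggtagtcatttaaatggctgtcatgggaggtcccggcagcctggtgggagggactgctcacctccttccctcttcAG
Prelid1-202: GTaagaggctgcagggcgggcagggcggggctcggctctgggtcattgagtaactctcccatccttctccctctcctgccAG
Tap2-202: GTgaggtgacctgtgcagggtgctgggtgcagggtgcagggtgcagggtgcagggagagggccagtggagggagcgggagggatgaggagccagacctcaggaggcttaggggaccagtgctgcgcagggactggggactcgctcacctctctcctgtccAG
Rps20-201: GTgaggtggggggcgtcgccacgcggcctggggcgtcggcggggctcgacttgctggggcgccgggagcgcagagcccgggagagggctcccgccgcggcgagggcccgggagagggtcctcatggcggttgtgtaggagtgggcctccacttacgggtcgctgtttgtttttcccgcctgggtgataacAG
Pirb-202: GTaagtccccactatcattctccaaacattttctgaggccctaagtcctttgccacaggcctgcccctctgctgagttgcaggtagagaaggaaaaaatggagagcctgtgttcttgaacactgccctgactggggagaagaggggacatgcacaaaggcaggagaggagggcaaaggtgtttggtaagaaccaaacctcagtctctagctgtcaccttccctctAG
Clk1-204: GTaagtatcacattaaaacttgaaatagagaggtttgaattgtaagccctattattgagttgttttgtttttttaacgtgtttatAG
Irf7-210: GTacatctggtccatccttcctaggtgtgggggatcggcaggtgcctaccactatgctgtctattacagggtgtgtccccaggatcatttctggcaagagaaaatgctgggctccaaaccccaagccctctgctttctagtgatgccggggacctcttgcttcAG

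The class of 14870 members without a whole intron had a median length of 779 nt and a median of 55.6% exon bases. The 6 shown here are described below and are richer in exon, with 87.4 to 99.0%, so they show how little intron some counted members carry, not the typical one. The intron bases are in capitals and 12 adjoining exon bases in lower case. H2-K1-215 starts 20 bases before an exon (chr17:33996655-33996674, minus strand), Por-206 starts 13 before (chr5:135731550-135731562, plus strand) and Abi1-214 starts 5 before (chr2:22960848-22960852, minus strand). Samhd1-210 runs 27 bases past an exon's end (chr2:157101694-157101720, minus strand), Cdk1-204 runs 56 past it (chr10:69345005-69345060, minus strand) and Ywhae-204 93 past it (chr11:75757024-75757116, plus strand). For each of the 6 these are all its bases outside the exons of protein-coding transcripts.
H2-K1-215: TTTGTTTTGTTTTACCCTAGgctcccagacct
Por-206: TCTCCCTTCCCAGcatccgccagta
Abi1-214: GTTAGacggaatacccc
Samhd1-210: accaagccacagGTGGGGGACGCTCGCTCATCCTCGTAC
Cdk1-204: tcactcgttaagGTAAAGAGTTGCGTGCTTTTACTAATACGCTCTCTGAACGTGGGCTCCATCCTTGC
Ywhae-204: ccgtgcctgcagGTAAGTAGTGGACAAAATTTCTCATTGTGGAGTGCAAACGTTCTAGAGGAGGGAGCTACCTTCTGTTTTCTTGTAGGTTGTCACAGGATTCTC

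Together the members held 2.76, 3.94, 4.01 and 4.18% of all RSEM TPM in replicates 1 to 4, and 2.84, 4.16, 4.30 and 4.47% of kallisto TPM. Replicate 1 was lowest in both. In every library kallisto TPM gave the larger share, by 0.221 ± 0.0978 percentage points (SD, n = 4; exact two-sided sign-flip permutation test p = 0.13, the smallest that 4 libraries allow). By counts instead of TPM the shares were smaller, at 1.51, 2.59, 2.33 and 2.18% in the RSEM tables.

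Few members were abundant. Mean levels of at least 1 TPM in both quantifications were reached by 2713 members, of at least 10 TPM by 374, and of at least 100 TPM by 31. In all 4 libraries and both quantifications, 1086 stood at 1 TPM or more, and 3705 were at 0 throughout. The 12 highest members held 35.0, 25.5, 30.7 and 35.1% of the members' summed RSEM TPM.

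The abundant members were mostly exon. The median share of a member's bases that also lie in exons of its gene's protein-coding transcripts was 55.9% for members below 1 TPM, 68.6% from 1 to 10 TPM, 83.5% from 10 to 100 TPM and 85.1% at 100 TPM or more. Median transcript length went from 894 to 818, 750 and 657 nt over the same steps. Of the 31 members at 100 TPM or more, 7 contained a whole intron. Reads from exons shared with spliced transcripts are divided between transcripts by each program's model, so the level of an exon-rich member rests largely on that division. The edgeR tests below took the divided counts as given, so their p-values leave out the uncertainty of that division.

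**Figure D1:**
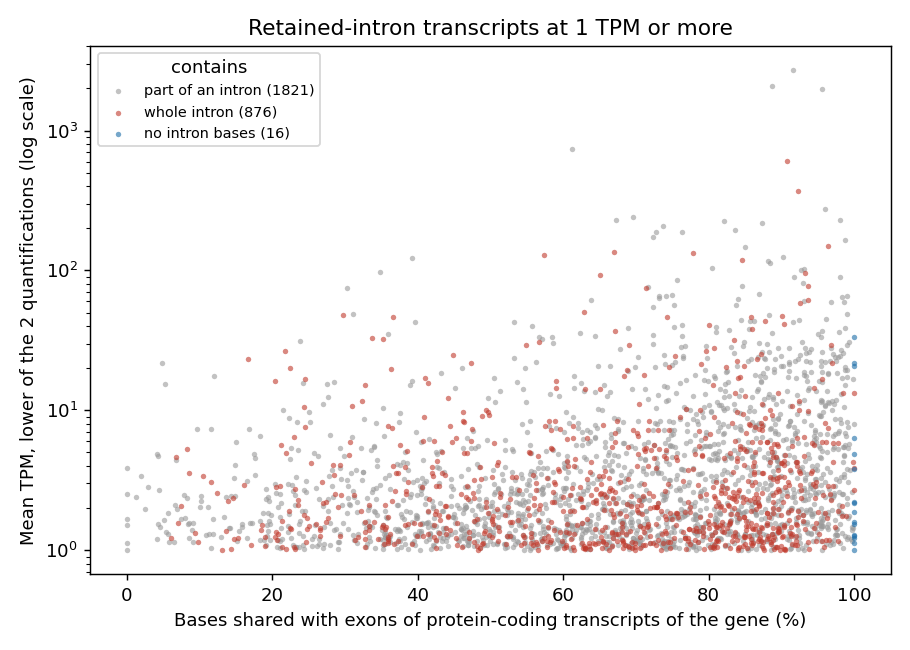
Each point is 1 of the 2713 retained-intron transcripts at a mean of 1 TPM or more in both quantifications, by the percentage of its bases shared with exons of protein-coding transcripts (x axis) and its mean TPM, the lower of the 2 quantifications (y axis, log scale). Colours mark what the transcript contains, and the points above 100 TPM lie mostly at the exon-rich right side. Those marked as part of an intron hold no whole intron and have bases outside coding-transcript exons.

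The 12 highest members came from genes of varied function. Itm2b-202, from the gene of the integral membrane protein BRI2, stood at 1830.2, 1941, 3443 and 3625 RSEM TPM in replicates 1 to 4 and at 1990.0, 1899.6, 3548 and 3773 kallisto TPM. It has 935 bases, 78 of them intronic. Replicates 3 and 4 lay above replicates 1 and 2 without overlap in both quantifications.

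Ctsb-202, from the gene of the lysosomal protease cathepsin B, stood at 3711, 3775, 824 and 46.6 RSEM TPM and at 4855, 4495, 1384 and 964 kallisto TPM. Here replicates 1 and 2 were the high ones. In replicate 4 the quantifications differed most, with 0.872% of the gene's RSEM TPM and 15.8% of its kallisto TPM.

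H2-K1-215, from the gene of the MHC class I heavy chain H2-K, stood at 2831, 2763, 4257 and 4531 RSEM TPM and at 1225, 1515, 2573 and 2594 kallisto TPM. Its sequence printed above shows the 20 intronic bases of its 457. It held 33.9, 34.4, 60.7 and 61.3% of the gene's RSEM TPM, so replicates 3 and 4 exceeded replicates 1 and 2. H2-K1-214, a whole-intron member of the same gene (intron 2 of 7, 187 nt), stood at 75.4, 162, 59.5 and 57.0 RSEM TPM and was highest in replicate 2. MHC class I genes are near-identical to each other in long stretches, so how reads were split between them is uncertain.

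Gpnmb-204, from a glycoprotein gene active in lysosome-rich macrophages, stood at 26.9, 43.9, 299 and 2559 RSEM TPM and at 34.4, 59.3, 1350.1 and 3886 kallisto TPM. Replicate 4 was far above the other three in RSEM TPM. Calr-204, from the gene of the endoplasmic reticulum chaperone calreticulin, keeps the 87-nt intron printed above and stood at 44.1, 116, 925 and 1343 RSEM TPM and at 123, 217, 1013 and 1480.0 kallisto TPM. It held 8.76, 13.6, 62.0 and 64.0% of the gene's RSEM TPM.

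Pirb-202, from the gene of an inhibitory receptor for MHC class I that has close paralogs in the Pira genes, stood at 132, 278, 464 and 606 RSEM TPM. Samhd1-210, from the gene of a nucleotide hydrolase that restricts retroviruses, stood at 236, 236, 549.7 and 386 RSEM TPM. Sod2-204, from the gene of mitochondrial superoxide dismutase, stood at 288, 429, 144 and 124 RSEM TPM. Sod2-204 was higher in replicates 1 and 2, and its level differed between the pairs with a log2 change of -1.35 (SE 0.193, adjusted p = 0.0385 by edgeR). Like every level call, this one was lost without replicate 1 or without replicate 2. The gene's total fell too, at 635, 937, 348 and 330 RSEM TPM. As a share of its gene Sod2-204 was 45.4, 45.7, 41.5 and 37.5% of RSEM TPM.

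Por-206, from the gene of cytochrome P450 reductase, stood at 2.90, 1.29, 439 and 471 RSEM TPM and at 23.9, 9.62, 443 and 465 kallisto TPM. Ywhae-204, from the gene of the adaptor protein 14-3-3 epsilon, stood at 3.81, 11, 365 and 489.8 RSEM TPM and at 37.6, 32.3, 359 and 500.3 kallisto TPM. Both were near the bottom of the scale in replicates 1 and 2 in RSEM TPM, and less so in kallisto TPM. Myl12b-202, from a myosin light chain gene, and Ms4a6c-202, from the MS4A family of membrane proteins, completed the highest 12 with 231, 203, 361 and 318 and 321, 250.2, 213 and 165 RSEM TPM. Of Myl12b-202, 199 bases overlap another gene on the same strand.

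**Figure D2:**
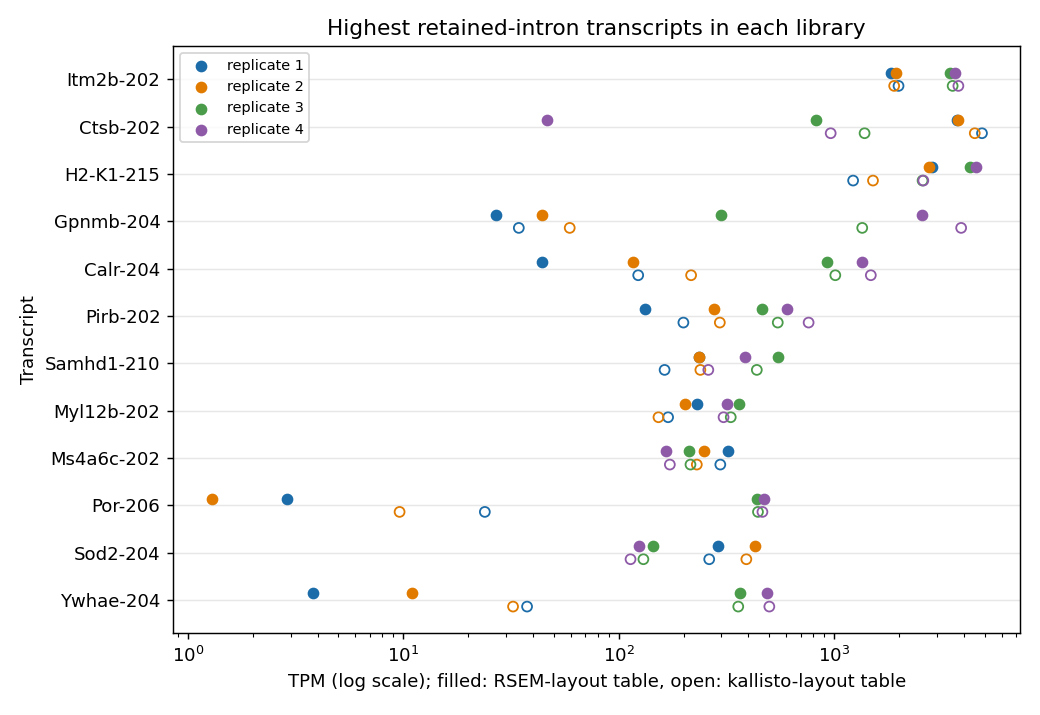
TPM (x axis, log scale) of the 12 highest retained-intron transcripts (y axis) in each of the 4 libraries, filled for RSEM TPM and open for kallisto TPM. Por-206 and Ywhae-204 lie below 40 TPM in replicates 1 and 2 and above 300 TPM in replicates 3 and 4, while Ms4a6c-202 stays between 165 and 321 TPM.

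The quantifications often disagreed on a member. Among the 3988 members with a mean of at least 1 TPM in either, 1734 (43.5%) were within 2-fold of each other in all 4 libraries after 0.1 TPM was added, against 71.2% of 18960 protein-coding transcripts. Agreement fell with exon content, from 62.7% of members with under 50% exon bases to 29.7% of those with 80% or more. In all 4 libraries kallisto TPM was more than 2-fold higher for 286 members, and RSEM TPM for 119.

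The widest gaps among members at 10 TPM or more in all libraries of one table were taken as 5 members in each direction. Anpep-206, from the gene of the surface peptidase CD13, stood at 41.9, 103, 37.9 and 84.9 RSEM TPM and at 0.487, 1.40, 0.472 and 0.150 kallisto TPM. Flii-203 stood at 31.1, 41.8, 39.3 and 51.7 and 1.29, 2.78, 0.857 and 1.48 TPM. In the other direction, Hmgb1-206, from the gene of a chromatin protein with many pseudogenes, stood at 0, 1.15, 0.310 and 0 RSEM TPM and 20.1, 12.4, 20.8 and 10.9 kallisto TPM. Eif5b-202, from a translation initiation factor gene, stood at 3.92, 7.74, 6.23 and 2.65 RSEM TPM and 24.9, 24.8, 70.9 and 43.1 kallisto TPM. The level of such a member depends on the table it is read from. Rpl5-202, Ppp1r21-202 and Plxnb2-208 were the other wide gaps on the RSEM side, and Stom-202, Tpp1-202 and Lrpap1-203 on the kallisto side.

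Most host genes gave members a small share. Among 4715 genes at 5 TPM or more in every library and quantification, the median share of gene TPM held by members was 1.63, 3.34, 2.06 and 1.81% by RSEM and 2.83, 5.81, 3.48 and 2.95% by kallisto in replicates 1 to 4. Replicate 2 was highest in both. The share was under 5% in all 8 measurements for 1855 genes (39.3%) and over 20% in all 8 for 227 (4.81%).

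A member was the leading transcript, that of highest TPM in its gene, in all 4 libraries for 71 genes by RSEM, 79 by kallisto and 57 by both (1.21% of genes). The same transcript led throughout in 51 of these. In single libraries the RSEM count was 120, 138, 219 and 223, with replicates 3 and 4 above replicates 1 and 2. By counts in place of TPM, which favours long transcripts, members led in both tables for 28 genes.

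Whole introns were kept by the leading member in 11 of the 57 genes. Rps20-201, from the gene of a small ribosomal subunit protein, held 85.1, 85.6, 90.3 and 91.5% of the gene's RSEM TPM, at 256, 339, 118 and 100.4 TPM. Ncl-202, from the gene of nucleolin, a protein of ribosome assembly, holds introns of 190 and 492 nt and held 83.2, 79.96, 86.4 and 89.5%. Prelid1-202, from the gene of a mitochondrial lipid carrier, keeps an 82-nt intron and held 82.5, 80.5, 78.4 and 77.2%. Tap2-202, from the gene of a subunit of the peptide transporter of antigen presentation, keeps a 162-nt intron and held 76.0, 75.6, 78.7 and 80.1%. These 4 shares varied little over the libraries. Antisense genes overlap 102 bases of Prelid1-202 and 673 of Tap2-202, and also 180 of Gm21188-202, 115 of Clk3-202 and 64 of Flii-203. Pseudogene copies of ribosomal protein genes can share reads with Rps20-201, and whether counting used strand is not given in the sources used here.

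Most other leading members ended or started inside an intron. Rab8a-202, from a gene of a small GTPase of vesicle traffic, held 62.8, 62.5, 81.1 and 81.2% of the gene's RSEM TPM. Ghitm-203, from a mitochondrial membrane protein gene, held 52.6, 51.1, 63.0 and 69.8%, and Myl12b-202 held 63.6, 58.8, 73.3 and 72.6%. Dram2-207, from a lysosomal membrane protein gene, held 46.4, 47.0, 42.5 and 48.6% and Aida-205 held 49.2, 47.2, 53.4 and 56.2%. Gm21188-202, with 34.8% exon bases, held 76.6, 78.3, 86.9 and 85.9%. Cdk1-204, from the gene of the kinase that drives mitosis, held 51.8, 56.8, 66.6 and 67.0% at 18.2, 11.8, 20.9 and 13.8 RSEM TPM, and 44.2, 42.7, 59.4 and 59.4% of kallisto TPM. For Rps16, the gene of a small ribosomal subunit protein, the leading member was not the same everywhere: Rps16-203 held 40.9, 40.0, 84.1 and 89.2%, and all its members together 72.8, 74.7, 95.4 and 93.1%.

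Of the 12 gene lists, SR proteins and detained-intron genes had the highest median shares in all 4 libraries and both quantifications. SR proteins are RNA-binding factors that help the spliceosome find exons. Their list, with TRA2 and also Srrm1, Srrm2, Rsrc1 and Rsrp1, had 14 genes at 5 TPM or more. Its median member share was 7.02, 18.5, 10.2 and 8.44% by RSEM and 9.11, 19.5, 12.5 and 10.6% by kallisto. The list of genes known for introns detained in the nucleus held kinases and metabolic sensors, and others such as Nxf1, Mdm2 and Tia1. It had 18 genes at 5 TPM or more, at 9.29, 28.1, 14.1 and 12.0% and 14.2, 30.8, 18.6 and 18.2%. For hnRNPs and other splicing regulators (40 genes) the medians were 4.05, 9.67, 5.97 and 4.18% and 4.58, 13.5, 6.97 and 4.73%. A share above 5% in all 8 measurements was found for 10 of 14 SR-list genes, 10 of 18 detained-intron genes and 14 of 40 hnRNP-list genes. The same held for 11 of 29 Toll-like receptor and NF-kB genes, 8 of 25 antigen-presentation genes and 7 of 36 interferon-response genes, against 870 of 4715 (18.5%) of all host genes. The detained-intron list was drawn up from genes known for retention, and no test of these lists against other genes was run.

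Single genes of these lists varied in share and in the library that was highest. Clk1 and Clk4, kinases of SR proteins, gave members 18.4, 33.7, 20.5 and 20.7% and 21.6, 36.4, 24.3 and 32.8% of gene RSEM TPM. Clk1-204 holds 3 whole introns, one of which is printed above, and stood at 1.83, 8.72, 5.68 and 3.42 RSEM TPM. Ogt, the enzyme that attaches N-acetylglucosamine to proteins, gave 30.1, 28.3, 17.7 and 32.0%, and replicate 2 was not the highest. Mat2a, which makes S-adenosylmethionine, gave only 1.52, 3.45, 0.562 and 0.309%.

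Among SR genes, Srsf5 gave members 12.1, 33.6, 8.56 and 8.21% of RSEM TPM, and its main member Srsf5-212, with a retained intron of 1229 nt, stood at 12.9, 70.0, 26.7 and 18.3 RSEM TPM. Srsf2 gave 8.94, 21.02, 16.1 and 10.8% and Srsf7 gave 5.87, 11.9, 13.4 and 8.67%. Srsf7 was highest in replicate 3, not replicate 2. Rsrp1-204, the only member of an arginine- and serine-rich protein gene and the highest member of the SR list, keeps 1302 nt and stood at 103, 386, 118 and 50.7 RSEM TPM, or 44.5, 62.2, 37.7 and 31.2% of the gene. Srsf2-203 overlaps an antisense gene over 450 bases. Clk3-202, an exon-rich member that starts 31 bases before an exon, went the other way, at 0, 7.39, 40.3 and 49.0 RSEM TPM.

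**Figure D3:**
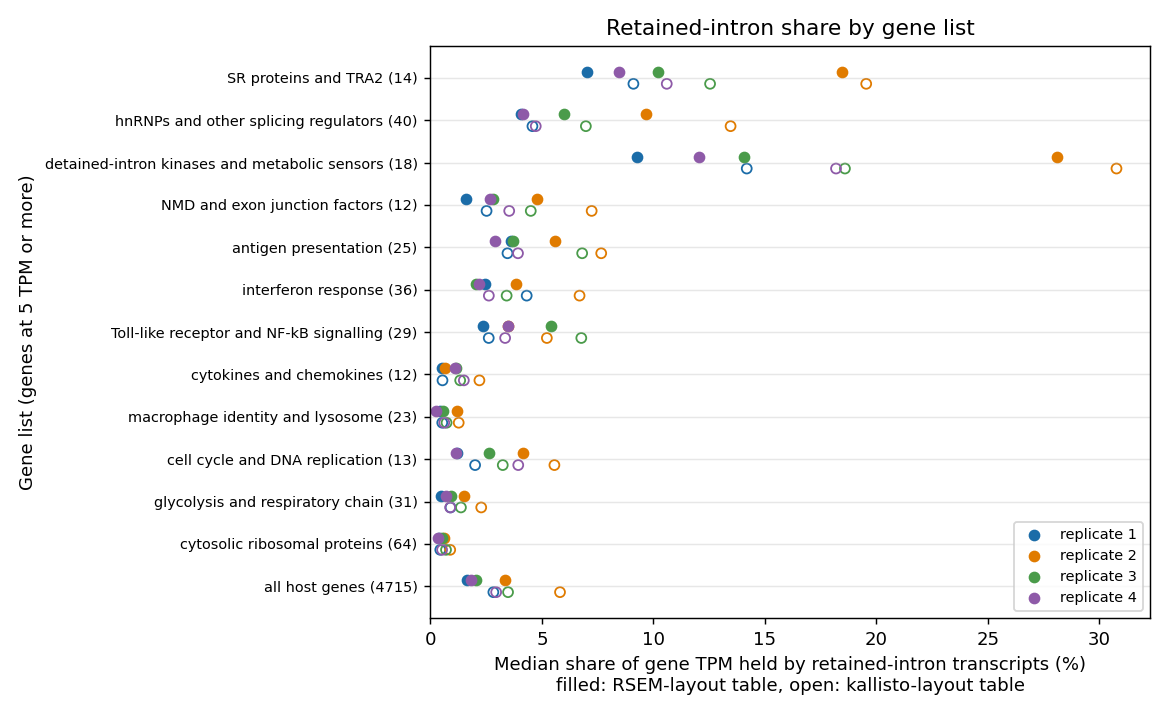
Median percentage of gene TPM held by retained-intron transcripts (x axis) for each gene list and for all host genes (y axis, number of genes in brackets), filled for RSEM and open for kallisto TPM, 1 colour per library. Replicate 2 lies rightmost for all host genes and for most lists, not only the SR, hnRNP and detained-intron lists. Replicate 3 lies rightmost for the Toll-like receptor and NF-kB list, and for the cytokine list by RSEM. The ribosomal, lysosomal and cytokine lists lie near the left edge.

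The lists of macrophage function had medians below those of the SR, detained-intron and hnRNP lists in every library and both quantifications. Antigen-presentation genes (25 at 5 TPM or more) had median shares of 3.60, 5.61, 3.71 and 2.89% and interferon-response genes (36) of 2.47, 3.82, 2.05 and 2.20% by RSEM. Toll-like receptor and NF-kB genes (29) had 2.37, 3.49, 5.41 and 3.46%, with Tnip3-205 the highest member at 53.3, 79.4, 54.8 and 54.0 RSEM TPM. Cytokines and chemokines (12) had 0.523, 0.667, 1.14 and 1.11%. Their highest member was Ccl5-202, from a chemokine gene, at 28.4, 84.2, 13.1 and 15.6 RSEM TPM, or less than 1% of its gene in each library.

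Irf7, the transcription factor of the interferon response, gave members 7.44, 12.4, 14.3 and 11.2% of gene RSEM TPM. Irf7-210 stood at 161, 236, 109.5 and 95.1 RSEM TPM, highest in replicate 2. Irf7-205, which keeps an 85-nt intron, stood at 1.59, 5.95, 104 and 71.2 RSEM TPM, and its usage was higher in replicates 3 and 4 with a relative log2 change of 5.23 (edgeR usage test, adjusted p = 8.54e-07). By RSEM TPM the same gene thus had members of both library patterns.

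The lists of lysosome, metabolism and ribosome genes had medians below that of all host genes in every library and both quantifications. Macrophage identity and lysosome genes had median shares of 0.426, 1.20, 0.557 and 0.256%, glycolysis and respiratory chain genes 0.482, 1.51, 0.932 and 0.696%, and cytosolic ribosomal proteins 0.401, 0.620, 0.533 and 0.357%. Genes of nonsense-mediated decay and the exon junction complex had 1.59, 4.78, 2.82 and 2.68%, and cell cycle and replication genes 1.19, 4.15, 2.64 and 1.13% by RSEM. The first of these lay above the median of all host genes in replicates 2, 3 and 4 by both quantifications. The second lay above it in replicates 2 and 3 by RSEM, but only in replicate 4 by kallisto. Lmnb1, the gene of lamin B1, was itself low, at 5.51, 3, 4.35 and 4.26 RSEM TPM. Its only member Lmnb1-202 stood at 0, 0.270, 1.07 and 1.60 RSEM TPM, or 0, 9, 24.6 and 37.6% of the gene, and held 0, 0, 38.2 and 45.4% by kallisto.

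Members poor in exon bases were most often highest in replicate 2. Their other bases were not required to lie within introns. Of the 675 members at 1 TPM or more with under 50% exon bases, 4.15, 72.7, 14.7 and 8.44% were highest in replicates 1, 2, 3 and 4 by RSEM, and 1.93, 58.1, 26.2 and 13.8% by kallisto. For the 1004 members with 80% exon bases or more these shares were 12.0, 36.6, 22.8 and 28.7% and 9.16, 37.6, 25.3 and 27.9%. For 16450 protein-coding transcripts they were 18.7, 35.5, 19.4 and 26.4% and 11.1, 21.4, 30.3 and 37.2%. The deviation of a transcript from its own mean over the libraries was taken as log2(TPM + 0.5). By RSEM its median was -0.43, 0.61, 0.04 and -0.22 for the exon-poor members and -0.08, 0.10, -0.02 and 0.01 for protein-coding transcripts. By kallisto it was -0.59, 0.44, 0.20 and -0.03 against -0.28, -0.08, 0.17 and 0.19. Transcripts annotated as sense intronic, which lie within introns of other genes, summed to 28.3, 49.0, 37.1 and 34.0 RSEM TPM. They too were highest in replicate 2 by RSEM, but in replicate 3 by kallisto, at 77.5, 143, 151 and 129 TPM. The part of unspliced RNA in the excess of replicate 2 was not tested. In bulk samples fewer cells of a type and less RNA per cell cannot be told apart.

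**Figure D4:**
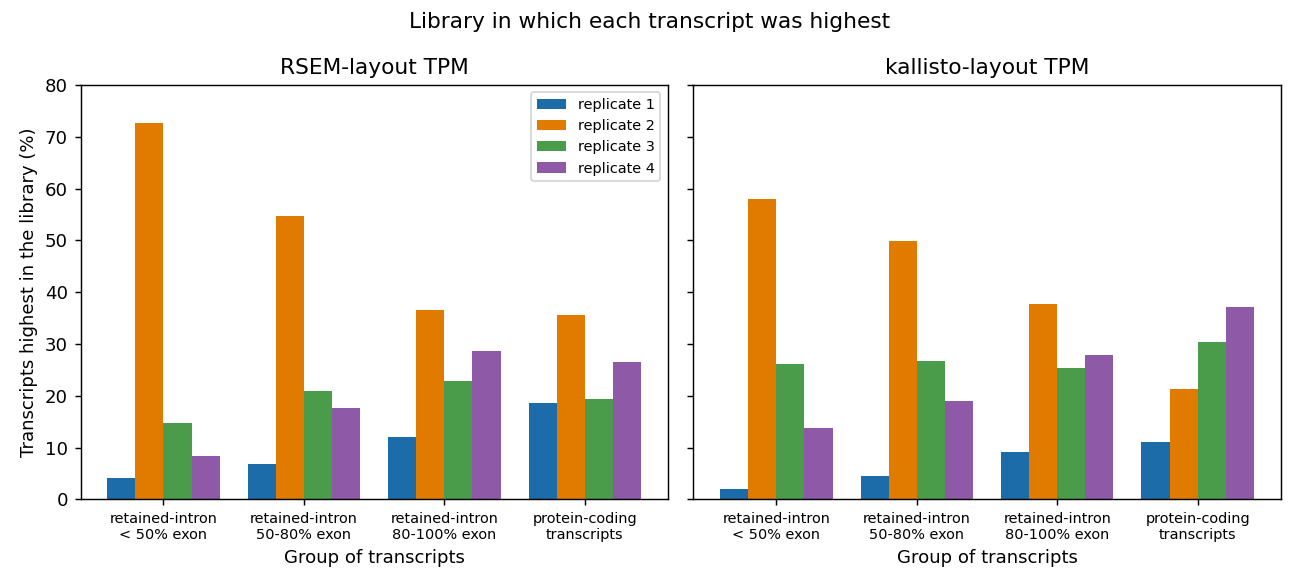
Percentage of transcripts (y axis) that were highest in each of the 4 libraries (colours), for retained-intron transcripts in 3 classes of exon content and for protein-coding transcripts (x axis), by RSEM (left) and kallisto (right). The bar of replicate 2 falls from 72.7% to 36.6% by RSEM as exon content grows.

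Nonsense-mediated decay transcripts gave a yardstick in the same genes. Among 1559 genes with both types and at least 10 TPM in each library, members held a median of 2.07, 4.18, 2.63 and 2.19% and decay transcripts 2.17, 2.30, 2.07 and 1.92% of gene RSEM TPM. The difference was 0.649 ± 0.862 percentage points (SD, n = 4; exact sign-flip permutation test, two-sided, p = 0.25), positive in 3 of 4 libraries and largest in replicate 2. Without replicate 2 it was 0.228. By kallisto, in the 1479 genes that met the same limit in kallisto TPM, it was 1.58 ± 1.55 (p = 0.13 by the same exact test), positive in 4 of 4.

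Replicates 3 and 4 were set against replicates 1 and 2 to measure how far the members followed the libraries' split by number of read files. This split is not a treatment, and what it stands for is not given in the labels. By level, 120 of 5604 tested members (2.14%) were higher in replicates 3 and 4 at an adjusted p below 0.05 (edgeR), beside 2.67% of all transcripts, and 45 (0.803%) were lower, beside 1.66%. By usage, the change of a transcript relative to the rest of its gene, 241 of 5582 (4.32%) were higher, beside 4.99% of all transcripts, and 127 (2.28%) lower, beside 3.06%. All 4 percentages lay below the background, a difference that was not tested. The members' median log2 fold change was -0.10 by level and -0.12 by usage, beside -0.0022 and -0.01 for all transcripts. No level call remained without replicate 1 or without replicate 2 (edgeR), among members or among all transcripts. Without replicate 3 or without replicate 4 fewer level calls were made, again among members and among all transcripts. DESeq2 on all 4 libraries called 370 higher and 215 lower of 5604 members, beside 3055 and 2356 of all 33888 transcripts.

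The calls lay mostly among exon-rich members. With 80% exon bases or more, 153 and 90 of 1536 members were called higher and lower by usage (9.96% and 5.86%), and with under 50% only 4 and 7 of 2175 (0.184% and 0.322%). Called members had a median length of 718 nt, against 1822 nt for those tested. Of the higher ones 86 had no count in replicates 1 and 2, and of the lower ones 50 had none in replicates 3 and 4. The matching share among called transcripts of other types was not taken, so these counts are not read as a trait of the members. With kallisto counts, 160 of the 368 calls were made again in the same direction, and 319 of the 332 that could be tested had the same sign. Leaving out any 1 library gave fewer usage calls in both directions, among members and among all transcripts.

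**Figure D5:**
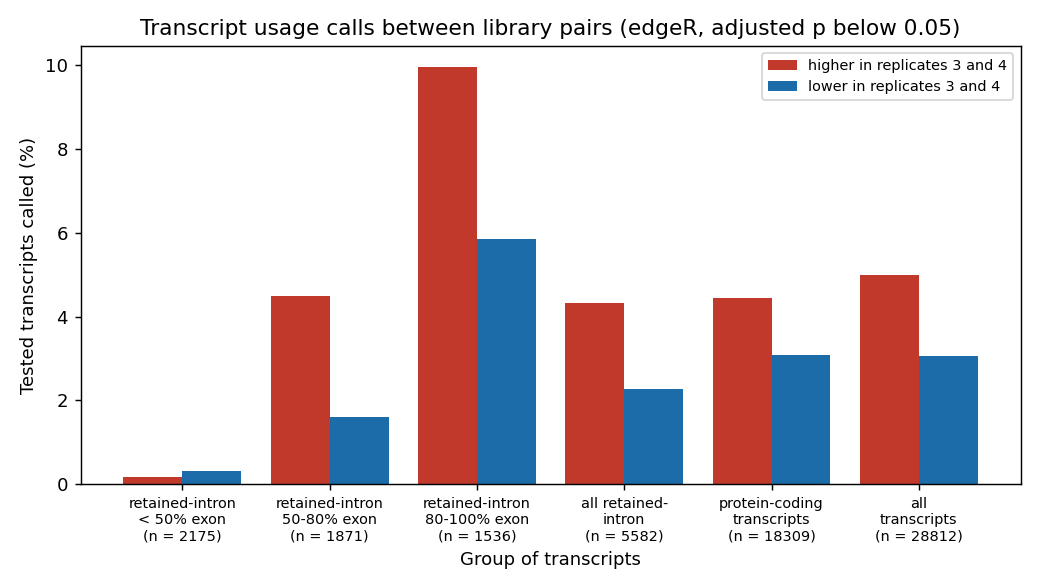
Percentage of tested transcripts (y axis) called higher (red) or lower (blue) in usage in replicates 3 and 4 than in replicates 1 and 2, by edgeR at an adjusted p below 0.05, for classes of transcripts (x axis, with the number tested). Calls among retained-intron transcripts rise from 0.184% to 9.96% (higher) with exon content.

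The members of largest usage change were present in 1 pair of libraries and at 0 RSEM counts in the other. They were chosen for that change and passed the count filter only through the pair in which they were present, so their values are given as a description, without a fold or p. Trim21-204, from the gene of a cytosolic antibody receptor and ubiquitin ligase, stood at 0, 0, 49.0 and 66.4 RSEM TPM and at 1.04, 1.15, 47.3 and 69.9 kallisto TPM. H2-DMa-202, from a gene of MHC class II peptide loading, stood at 0, 0, 32.4 and 64.0 RSEM TPM and at 0.844, 0, 32.1 and 65.7 kallisto TPM. Mfsd14b-202 stood at 0, 0, 20.9 and 28.6 RSEM TPM and at 0, 0.535, 20.2 and 29.7 kallisto TPM. In these 3 both quantifications gave far higher levels in replicates 3 and 4, though kallisto did not give 0 throughout replicates 1 and 2.

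Abi1-214 and Gnb2-210, from genes of an actin regulator and a G protein subunit, were also at 0 RSEM TPM in replicates 1 and 2. Kallisto gave Abi1-214 12.1, 3.55, 33.8 and 78.6 TPM and Gnb2-210 13.8, 15.2, 24.2 and 36.2 TPM, and with kallisto counts neither was called by edgeR. The sequence of Abi1-214 above shows the only 5 intronic bases it has.

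In the other direction, Ehd1-203, from a gene of endosome recycling, stood at 47.1, 46.7, 0 and 0 RSEM TPM and at 72.7, 58.3, 0.223 and 0.0914 kallisto TPM. Clptm1-209 stood at 23.9, 23.9, 0 and 0 RSEM TPM, and Psmb10-205, from an immunoproteasome subunit gene, at 39.4, 53.6, 0 and 0. 2610507B11Rik-203 stood at 15.9, 13.7, 0 and 0 RSEM TPM and was not called by edgeR with kallisto counts. Cct3-203, from a chaperonin subunit gene, stood at 18.8, 13.0, 0 and 0 RSEM TPM and lost its call without replicate 1, 3 or 4. By kallisto it stood at 0, 3.23, 0 and 0 TPM, and its usage was not tested with kallisto counts.

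Of the 12 highest members, 5 were called by usage, all higher in replicates 3 and 4, beside 4.99% higher and 3.06% lower of all transcripts. The 12 were ranked by mean level over all 4 libraries, which favours members very high in 1 pair, so this count does not test the split. Por-206, Ywhae-204, Gpnmb-204 and Calr-204 ranked there through replicates 3 and 4. Their relative log2 changes of 7.25, 5.43, 4.66 and 3.08 are given as a description, without a p. H2-K1-215, high in every library, had a relative log2 change of 1.33 (edgeR usage test, adjusted p = 0.00735). This p and the next ones do not include the uncertainty of dividing reads between transcripts. Ctsb-202, lower in replicates 3 and 4, had -3.04 and did not pass (adjusted p = 0.0999). Among the leading members, Rab8a-202 had 1.11 (adjusted p = 0.0391) and Rps16-203 had 1.66 (adjusted p = 0.039).

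Calls in the gene lists were few, beside 4.99% of all transcripts higher and 3.06% lower by usage, and counts of this size are not read as a result about any list. Of 27 tested members of SR-list genes 1 was higher and 0 lower by usage in edgeR, and of 43 of detained-intron genes 1 and 1. Their median relative log2 fold changes were -0.22 and -0.45. Of 58 members of antigen-presentation genes 3 were higher and 5 lower, and of 66 of interferon-response genes 2 and 2, with medians of -0.27 and -0.24. The count at an unadjusted p below 0.05 was 3 for SR-list genes. Of 93 members of hnRNP-list genes 4 were higher and 2 lower, and of 49 of Toll-like receptor and NF-kB genes 2 and 2. In the other 6 lists, of 12 to 73 tested members each, 0 to 1 were higher and 0 to 2 lower by edgeR, with 1 to 10 at an unadjusted p below 0.05. Highest in the lists of splicing regulators, glycolysis and decay factors were Hnrnpa2b1-208 at 11.9, 57.2, 32.0 and 17.4, Pkm-205 at 4.24, 13.2, 7.12 and 14.9 and Pabpc1-209 at 0.830, 2.10, 1.71 and 2.63 RSEM TPM.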

How the data were processed

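RNA from 4 macrophage libraries was quantified by the authors. The deposited transcript tables hold expected counts (RSEM column layout) or estimated counts (kallisto column layout) and TPM, scaled within each library per the file headers. Per the deposited notes they rest on mm10 and GENCODE M21. RSEM and kallisto are read from the column layouts, and which programs and versions ran is not given in the sources used here. The 97 spike-in rows were left out. Members were classified against the exons and introns of the GENCODE M21 annotation with Python 3.11.15 and pandas 2.3.3. RSEM expected counts were rounded and tested with edgeR 4.0.16 (R 4.3.3): filterByExpr with a minimum count of 10, TMM, quasi-likelihood test of replicates 3 and 4 against 1 and 2 for level, and diffSpliceDGE for usage, with Benjamini-Hochberg adjustment over all transcripts tested. DESeq2 1.42.0, RLE factors, no filter, kallisto counts and leaving out each library were alternatives. Shares were compared with exact sign-flip permutation tests over libraries. Gene tables and the RSEM credibility intervals were not used.

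Named members were, by rule, the 12 of highest level in the lower of both quantifications, the highest member of each list and any list gene led by a member, the 5 of largest gap between quantifications each way among those at 10 TPM or more, the 5 of largest called usage change each way at a mean of 5 TPM or more, the 10 highest genes led by a member, and the members of H2-K1, Cdk1, Irf7, Clk1, Clk4, Ogt, Mat2a, Srsf2, Srsf5, Srsf7 and Lmnb1. Members, lists and rules were chosen with earlier results of these data known.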

Additional observations from a re-analysis of the deposited data

Results flagged for a closer look

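In 8 of 140 sets of 4 library values, 1 library lay far from the other three by Dixon's test, which chance alone gives in about 1 of 20 sets. Gpnmb-204 reached 2559 RSEM TPM in replicate 4. In replicate 2, Tnip3-205 reached 79.4 RSEM TPM, Ccl5-202 reached 83.6 kallisto TPM and Mat2a-205 reached 1.74 RSEM TPM and 1.60 kallisto TPM. Also in replicate 2, Ppp1r21-202 and Cct3-203 stood at 3.03 and 3.23 kallisto TPM, near 0 elsewhere. Tpp1-202 reached 33.4 kallisto TPM in replicate 3.

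Genes without a protein-coding transcript hold another 427 retained-intron transcripts, which no comparison used. Above 3 counts in all 4 libraries were 58 of them. The highest, BE692007-202, stood at 27.0, 27.5, 31.6 and 26.1 RSEM TPM.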

How the results depend on the processing

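No paired analysis was possible because the 4 libraries form 1 group. Level calls among members, 120 higher and 45 lower of 5604, became 370 and 215 with DESeq2. They became 493 and 296 of 15326 without a filter on low counts, and 64 and 65 of 7756 with kallisto counts. All transcripts moved likewise, from 904 and 562 of 33888 to 3055 and 2356 with DESeq2. Without a filter these became 3952 and 2511 of 69161, and with kallisto counts 572 and 538 of 41827. Leaving out each library in turn gave 0 to 60 and 0 to 29, with 0 without replicate 1 or replicate 2, 60 and 29 without replicate 3, and 29 and 15 without replicate 4. Usage calls, 241 higher and 127 lower of 5582 members, became 156 and 196 of 7627 with kallisto counts, which reversed which direction had more. The direction also reversed over all transcripts, from 1439 and 882 of 28812 to 1107 and 1131 of 35343. Leaving out each library gave 88 to 161 and 44 to 89 usage calls. The cause of these shifts was not tested beyond the smaller number of libraries, and a pair reduced to 1 library is assumed to vary like the other. The 10 members named for usage were chosen for their change and had 0 RSEM counts in 1 pair. Refits on the same RSEM counts therefore could not test that change. With kallisto counts, Abi1-214, Gnb2-210 and 2610507B11Rik-203 were not called, and Cct3-203 was not tested. The excess of kallisto over RSEM in the members' share was 0.221 percentage points, 0.435 by counts and 0.586 over transcripts of protein-coding genes without mitochondrial ones (0.198 to 0.267 without 1 library). The excess over decay transcripts went from 0.649 points in 1559 genes to 1.58 with kallisto TPM, in a set of 1479 genes. For genes at 50 TPM or more it was 0.0324 (0.228 to 0.889 without 1 library in the main setting). Genes led by a member numbered 57, 36 at 20 TPM or more and 28 by counts. The mean over libraries of the median gene share fell from 2.21% to 1.09% by counts. Depth limits low members: 18708 of 21421 lay below 1 TPM in at least 1 quantification.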
